A study of Mus musculus with 6 samples.

Results

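The unfolded protein response and ER chaperone genes are described here across 6 leukaemia libraries. The set holds 31 genes, taken by symbol from the gene count table: 9 chaperones and co-chaperones, 2 lectin chaperones, 4 disulphide isomerases, 3 stress sensors, 3 transcription factors, 8 genes of ER-associated degradation and 2 translocon subunits. All 31 were among the 43629 genes of the table, and all 31 were among the 15432 genes with enough counts to be tested. RNA-seq measured poly-A RNA in c-kit+ bone marrow cells, which bear the stem cell factor receptor, sorted from frozen and thawed marrow of mice of the C57BL/6 strain that had reached end-stage leukaemia. Every mouse carried Cbfb-MYH11, the fusion gene of inversion 16 acute myeloid leukaemia. One group was Gata2+/f (replicates 7, 9 and 11), with 1 Gata2 allele in the state that the labels write as f, and the other was Gata2+/+ (replicates 3, 5 and 6), with 3 libraries each. The labels do not say what the f allele is, whether or by which Cre it was recombined, how old the mice were, or whether each library came from a separate animal, so the p-values measure only the spread between these libraries. The comparison asks how leukaemia with 1 altered Gata2 allele differs from leukaemia with both alleles intact.

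The endoplasmic reticulum (ER) folds secreted and membrane proteins. When unfolded proteins gather there, the sensors IRE1 (Ern1), PERK (Eif2ak3) and ATF6 start the unfolded protein response. IRE1 splices Xbp1 RNA to give an active transcription factor, ATF6 is cut in the Golgi to release one, and PERK phosphorylates eIF2 alpha, which slows translation in general while favouring that of ATF4. ATF6 and spliced XBP1 raise chaperones, disulphide isomerases and degradation factors, whereas ATF4 raises genes of amino acid supply and, with prolonged stress, the factor CHOP (Ddit3). In marrow the response is known from granulocyte precursors, which make large amounts of granule protein, and from plasma cells, which secrete antibody. Gene counts do not separate spliced from unspliced Xbp1 and do not measure translation, cleavage or phosphorylation.

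Library totals ranged from 53789568 to 67854631 expected counts. Gata2 had 498, 273 and 264 CPM (expected counts scaled to a common library size with TMM factors, as everywhere here) in Gata2+/f replicates 7, 9 and 11, against 886, 887 and 737 CPM in Gata2+/+ replicates 3, 5 and 6. Its log2 fold change, always Gata2+/f over Gata2+/+, was -1.28 (SE 0.32; edgeR quasi-likelihood adjusted p = 0.109; DESeq2 adjusted p = 0.00684). Kit, whose protein was used for the sort, was at 193, 175 and 328 CPM in Gata2+/f against 826, 1222 and 1466 CPM in Gata2+/+. The groups also differed in the levels of marker genes. Markers of late neutrophils summed to 4001 to 8000.4 CPM in Gata2+/f and 151 to 443 CPM in Gata2+/+, and 10 of 10 were higher. The summed mast cell and basophil markers were at 1328 to 4139.6 CPM in Gata2+/f and 10966 to 13079 CPM in Gata2+/+. This list includes Gata2 and Kit, given above. Of 11 tested, 1 had a positive log2 fold change, the basophil protease Prss34. It had 0.877, 2.12 and 7.64 CPM in Gata2+/f against 0.640, 0.664 and 0.140 CPM in Gata2+/+, without overlap. Mcpt8, also a basophil protease, overlapped between groups at a log2 fold change of -0.90. Tpsab1, too low to test, was at 0 in all 3 Gata2+/f libraries. In bulk RNA, fewer cells of a type and less RNA per cell cannot be told apart.

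None of the 31 genes passed the edgeR quasi-likelihood test at an adjusted p under 0.05, and none of the 15432 genes did (0.0% called); edgeR's newer form called 32 of all genes (0.207%) and 0 of the 31. Without passing that threshold, most of the folding machinery had higher mean levels in Gata2+/f than in Gata2+/+, and Atf4, Ddit3 and Dnajb9 had lower ones. The log2 fold change was positive for 22 of the 31 and negative for 9, and its median was 0.30, beside 0.019 over all tested genes, of which 51.1% were positive. At an unadjusted p under 0.05, 8 of the 31 were higher and 4 lower (38.7% in either direction), where 11.1% of all genes were higher and 11.5% lower (22.6% in either direction). With library totals in place of TMM, which moves the median of all genes by 0.19 to 0.21, the split was 13 higher and 2 lower, where 15.9% of all genes were higher and 7.26% lower. DESeq2 called 4 of the 31 higher and 0 lower at an adjusted p under 0.05 (Pdia6, Pdia4, Hyou1 and Derl3), where it called 6.58% of all genes higher and 6.09% lower (12.7% in either direction). All 3 Gata2+/f libraries lay above all 3 Gata2+/+ libraries for 10 of the 31 (13.1% of all genes), and below them for 2 (16.6% of all genes); 29.7% of all genes did not overlap in either direction.

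**Figure D1:**
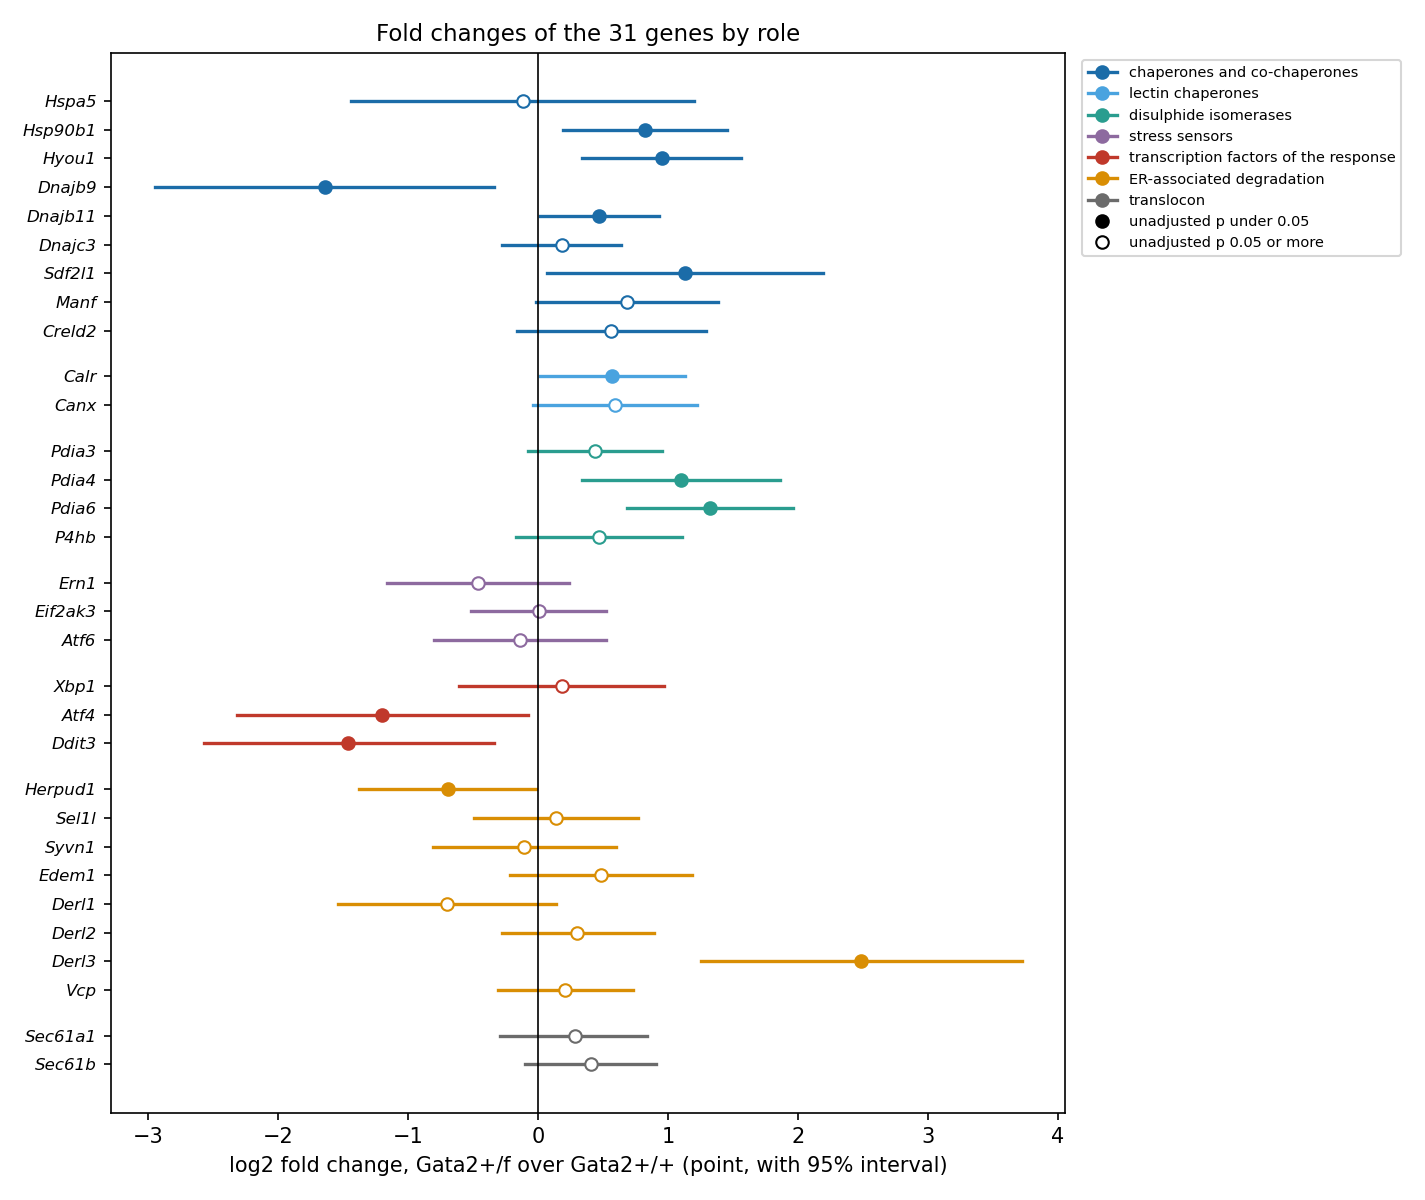
Log2 fold change, Gata2+/f over Gata2+/+, of each of the 31 genes with its 95% interval from the edgeR model, ordered by role; filled points have an unadjusted p under 0.05. The 8 filled points right of 0 are chaperones, a lectin chaperone, disulphide isomerases and Derl3, and the 4 left of 0 are Dnajb9, Atf4, Ddit3 and Herpud1.

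Promoter sequences are shown first, since chaperone genes are known to carry the ER stress response element bound by ATF6 and XBP1. RefSeq promoters on GRCm38.p6, from 250 bases before to 50 after the start, were listed for 26 of the 31 genes (27 promoters). The element, CCAAT, then any 9 bases, then CCACG on either strand, was found in 9 of these 26 genes and in 39 of all 32851 promoters of the table (0.119%). It lay between 26 and 212 bases before the start. The elements of the 9 genes, with the fixed letters in capitals and read along the strand that carries CCAAT first, were:
Hspa5: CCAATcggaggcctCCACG
Hsp90b1: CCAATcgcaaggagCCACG
Hsp90b1: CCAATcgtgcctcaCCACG
Dnajc3: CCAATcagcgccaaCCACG
Creld2: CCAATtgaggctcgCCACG
Calr: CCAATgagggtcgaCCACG
Canx: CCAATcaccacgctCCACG
Pdia6: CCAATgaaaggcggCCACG
Syvn1: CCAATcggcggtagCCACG
Derl3: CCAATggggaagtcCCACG
Only the outer letters are shared by the rule; Hsp90b1 holds the element on each strand. A second form, ATTGG, any 1 base, then CCACG, was in Dnajb11 and Herpud1 and in 12 of all promoters (0.0365%).
Dnajb11: ATTGGcCCACG
Herpud1: ATTGGgCCACG
The XBP1 and ATF6 sequence TGACGTGG was in the Vcp promoter and in 0.676% of all promoters. The ATF4 and C/EBP sequence TGATGNAAT was in 0 of the 27 promoters of these genes and in 0.965% of all. In none of the 27 did the searched motifs overlap each other. Hyou1, Manf, Atf6, Derl1 and Sec61a1 had no entry. Pdia4 had an entry but held none of the searched motifs.

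The promoters of the 4 genes of smallest p that hold one of these motifs follow, 5′ to 3′ along the gene, with each motif and its spacer in capitals; an element on the other strand therefore reads from CGTGG to ATTGG. Pdia6 is at chr12:17266339-17266638 (plus strand), Derl3 at chr10:75893148-75893447 (plus strand), Hsp90b1 at chr10:86705395-86705694 (minus strand) and Dnajb11 at chr16:22857595-22857894 (plus strand).
Pdia6: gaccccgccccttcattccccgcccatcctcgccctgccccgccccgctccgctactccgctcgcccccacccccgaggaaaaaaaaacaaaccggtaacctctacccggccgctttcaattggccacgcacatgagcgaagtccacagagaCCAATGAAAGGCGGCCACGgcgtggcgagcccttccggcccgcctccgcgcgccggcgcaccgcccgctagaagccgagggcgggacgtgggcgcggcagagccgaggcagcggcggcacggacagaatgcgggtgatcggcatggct
Derl3: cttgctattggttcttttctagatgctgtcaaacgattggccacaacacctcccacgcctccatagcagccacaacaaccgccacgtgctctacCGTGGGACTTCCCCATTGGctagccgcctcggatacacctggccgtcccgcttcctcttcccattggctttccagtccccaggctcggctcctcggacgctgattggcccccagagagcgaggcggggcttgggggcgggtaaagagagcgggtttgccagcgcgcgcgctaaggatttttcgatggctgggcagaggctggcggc
Hsp90b1: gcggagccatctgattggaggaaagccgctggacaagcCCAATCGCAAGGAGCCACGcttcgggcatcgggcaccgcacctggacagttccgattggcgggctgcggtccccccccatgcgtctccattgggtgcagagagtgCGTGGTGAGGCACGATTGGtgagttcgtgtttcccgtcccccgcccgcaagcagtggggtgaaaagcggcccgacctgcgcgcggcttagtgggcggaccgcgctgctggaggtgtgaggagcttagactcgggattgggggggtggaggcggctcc
Dnajb11: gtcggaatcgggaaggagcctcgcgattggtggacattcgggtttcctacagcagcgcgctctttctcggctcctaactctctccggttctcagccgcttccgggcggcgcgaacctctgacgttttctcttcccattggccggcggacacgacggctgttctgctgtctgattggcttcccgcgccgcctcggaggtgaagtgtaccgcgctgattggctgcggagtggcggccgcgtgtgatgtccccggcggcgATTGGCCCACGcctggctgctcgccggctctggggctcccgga
The 9 genes with the first element had a median log2 fold change of 0.57, with 7 positive and 2 negative (Hspa5 and Syvn1). The 17 listed genes without it had a median of 0.21, with 12 positive. The 2 genes with the second form differed in sign, Dnajb11 at 0.47 and Herpud1 at -0.69. A match describes letters and not binding.

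The disulphide isomerases, which form and reshuffle the disulphide bonds of new proteins, were all higher on average in Gata2+/f. Pdia6, which also binds the IRE1 sensor, had 168, 256 and 231 CPM in Gata2+/f replicates 7, 9 and 11, against 76.8, 114 and 71.4 CPM in Gata2+/+ replicates 3, 5 and 6. The lowest Gata2+/f library was above the highest Gata2+/+ library. The means were 218 ± 45.5 CPM in Gata2+/f and 87.2 ± 23.0 CPM in Gata2+/+ (SD, n = 3 each), a log2 fold change of 1.32 (SE 0.27; 95% interval 0.68 to 1.96; edgeR unadjusted p = 0.00155, adjusted p = 0.0966; DESeq2 adjusted p = 0.00206). The Pdia6 gene spans chr12:17266545-17284770 on the plus strand (GRCm38).

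Pdia4, a related isomerase, had 78.0, 136 and 108 CPM in Gata2+/f against 40.6, 71.2 and 38.6 CPM in Gata2+/+. The groups did not overlap, although Gata2+/f replicate 7 and Gata2+/+ replicate 5 lay close together. Its log2 fold change was 1.10 (SE 0.33; edgeR adjusted p = 0.137; DESeq2 adjusted p = 0.0404). Pdia3, which folds glycoproteins together with calnexin and calreticulin, had 440.2, 535 and 571 CPM in Gata2+/f against 381, 405 and 357 CPM in Gata2+/+, without overlap. P4hb, the founding isomerase and a subunit of prolyl hydroxylase, overlapped between groups with 502, 878 and 604 CPM in Gata2+/f against 510.1, 469 and 451 CPM in Gata2+/+. The log2 fold changes of Pdia3 and P4hb were 0.44 and 0.47, with unadjusted p of 0.0869 and 0.126.

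The lectin chaperones hold glycoproteins until they are folded. Calr, the soluble calreticulin, had 1159, 1340.4 and 997 CPM in Gata2+/f against 822, 782 and 747 CPM in Gata2+/+. All Gata2+/f values were above all Gata2+/+ values, at a log2 fold change of 0.57 (SE 0.24; unadjusted p = 0.0458, adjusted p = 0.215). Canx, the membrane-bound calnexin, had 614, 342 and 504 CPM in Gata2+/f against 341, 326 and 302 CPM in Gata2+/+. Its groups parted only by the gap between Gata2+/f replicate 9 and Gata2+/+ replicate 3. Per kilobase of exon, Calr had the highest mean level of the 31 genes in Gata2+/f, 405 ± 59.6 CPM per kb, and stood at 272 ± 13 CPM per kb in Gata2+/+. Calr lies on chromosome 8, whose genes had a median deviation of 0.42 on the log2 scale in Gata2+/f replicate 7. With the chromosome's median taken off each library, the difference in group means of log2(CPM + 0.5) for Calr was 0.48, beside 0.56 before.

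Among the chaperones, the HSP90 and large HSP70 members were higher in Gata2+/f. Hsp90b1 (GRP94), which folds integrins and Toll-like receptors, had 456, 537 and 715 CPM in Gata2+/f against 311, 386 and 269.8 CPM in Gata2+/+. Hyou1 (GRP170), a nucleotide exchange factor for BiP, had 141, 157 and 172 CPM in Gata2+/f against 78.4, 107 and 58.4 CPM in Gata2+/+. Neither gene overlapped between groups. The log2 fold change was 0.82 (SE 0.27; edgeR adjusted p = 0.156; DESeq2 adjusted p = 0.0618) for Hsp90b1 and 0.95 (SE 0.26; edgeR adjusted p = 0.127; DESeq2 adjusted p = 0.0335) for Hyou1.

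Hspa5, which encodes the central chaperone BiP and is often read as a gauge of the response, did not follow them. It had 831, 1437 and 1789.6 CPM in Gata2+/f replicates 7, 9 and 11, against 2705, 1127 and 579.7 CPM in Gata2+/+ replicates 3, 5 and 6. The Gata2+/+ libraries held both the highest and the lowest value of all 6. Means were 1352 ± 485 CPM in Gata2+/f and 1470.5 ± 1103 CPM in Gata2+/+, a log2 fold change of -0.12 (SE 0.57; 95% interval -1.44 to 1.20; unadjusted p = 0.837) whose sign changed with scaling. Without Gata2+/+ replicate 3 it was 0.71 (unadjusted p = 0.176), and without Gata2+/+ replicate 6 it was -0.46. The ratio of Hspa5 to Hsp90b1, both per kilobase of exon, was 1.74, 2.55 and 2.39 in Gata2+/f and 8.30, 2.79 and 2.05 in Gata2+/+. Replicate 3 of Gata2+/+ was thus high in Hspa5 without being high in Hsp90b1.

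The J-domain proteins, which hand clients to BiP and start its ATPase, were split. Dnajb9 (ERdj4), which also returns IRE1 to its resting state, had 17.5, 31.1 and 41.1 CPM in Gata2+/f against 175, 44.3 and 61.4 CPM in Gata2+/+. Every Gata2+/f value was below every Gata2+/+ value, and Gata2+/+ replicate 3 was 2.85 times the next highest library. The log2 fold change was -1.64 (SE 0.56; unadjusted p = 0.0198, adjusted p = 0.163), and without that replicate it was -0.77 (unadjusted p = 0.103). Dnajb11 (ERdj3) was higher in Gata2+/f, at 81.6, 93.9 and 82.5 CPM against 57.4, 70.1 and 58.7 CPM in Gata2+/+. Dnajc3 (P58IPK), an inhibitor of PERK, overlapped between groups at 90.0, 90.1 and 109.8 CPM in Gata2+/f against 75.6, 89.3 and 91.1 CPM in Gata2+/+.

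Smaller proteins of the ER lumen had positive log2 fold changes with overlapping groups. Sdf2l1, a partner of ERdj3, had 21, 47.1 and 30.4 CPM in Gata2+/f against 9.80, 24.3 and 10.9 CPM in Gata2+/+, with a log2 fold change of 1.13 (SE 0.46; unadjusted p = 0.0403, adjusted p = 0.205). Manf, a secreted factor retained by BiP, had 60.9, 112 and 84.4 CPM in Gata2+/f against 51.7, 67.8 and 40.7 CPM in Gata2+/+. Creld2 had 15.8, 28.6 and 23.0 CPM in Gata2+/f against 15.2, 17.5 and 12.9 CPM in Gata2+/+. In Sdf2l1, Manf and Creld2 alike, Gata2+/f replicate 9 was the highest library and Gata2+/f replicate 7 lay below Gata2+/+ replicate 5.

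**Figure D2:**
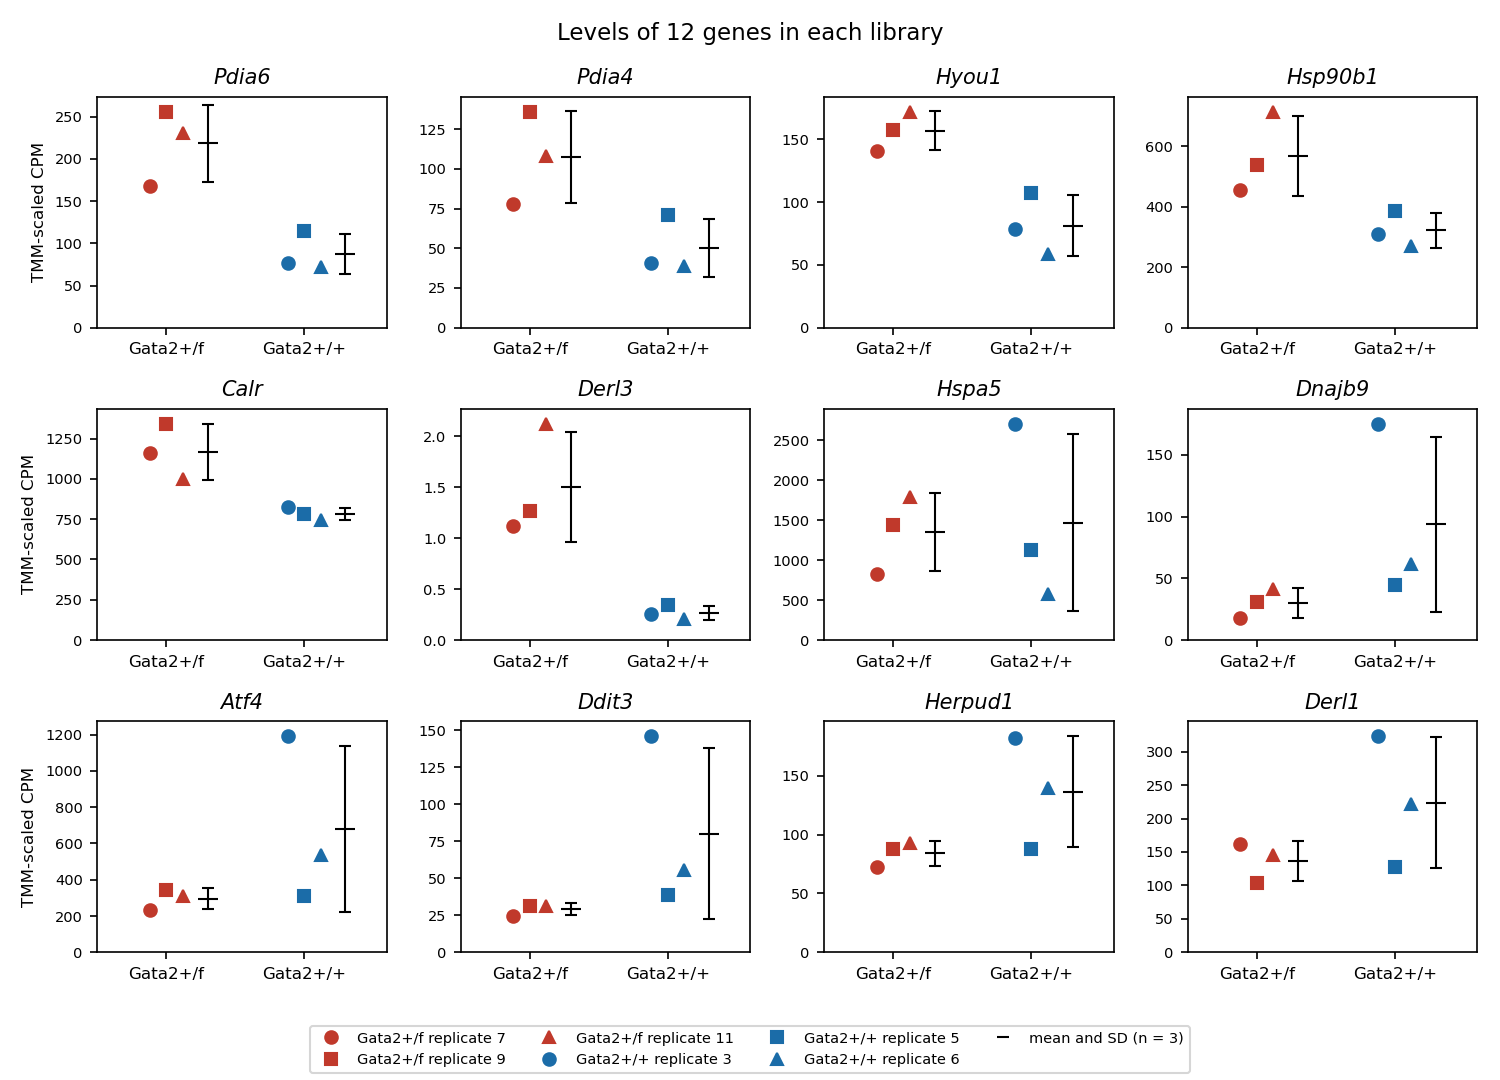
TMM-scaled CPM of 12 of the genes in each library, with the mean and SD of 3 libraries beside each group; each vertical axis starts at 0. Pdia6, Pdia4, Hyou1, Hsp90b1, Calr and Derl3 do not overlap between groups, whereas Gata2+/+ replicate 3 is the highest library for Hspa5, Dnajb9, Atf4, Ddit3, Herpud1 and Derl1.

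The 3 stress sensors overlapped between groups, and none had an unadjusted p under 0.05. Ern1 (IRE1 alpha) had 44.2, 65.3 and 81.8 CPM in Gata2+/f against 106, 92.9 and 63.7 CPM in Gata2+/+, a log2 fold change of -0.46 (SE 0.30; unadjusted p = 0.168). Eif2ak3 (PERK) was near level, between 25.3 and 31.6 CPM in Gata2+/f and between 27.8 and 30.7 CPM in Gata2+/+. Atf6 spread more widely in Gata2+/f, with 74.9, 58.0 and 118 CPM against 89.7, 87.8 and 98.8 CPM in Gata2+/+. Its log2 fold change of -0.14 (unadjusted p = 0.635) changed sign with scaling. Per kilobase the sensors were expressed at low levels beside the chaperones, with means of 4.86 to 9.05 CPM per kb in Gata2+/f and 4.85 to 10.7 CPM per kb in Gata2+/+.

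Of the transcription factors, Xbp1 overlapped between groups, and Atf4 and Ddit3 were lower in Gata2+/f on average. Xbp1 had 60.5, 139 and 135 CPM in Gata2+/f against 119, 91.6 and 85.6 CPM in Gata2+/+, a log2 fold change of 0.18 (SE 0.34; unadjusted p = 0.619). Atf4 had 232, 344 and 312 CPM in Gata2+/f against 1191, 309 and 539 CPM in Gata2+/+. Ddit3 (CHOP) had 24.4, 31.6 and 31.3 CPM in Gata2+/f against 146, 39.0 and 55.3 CPM in Gata2+/+. Ddit3 did not overlap, Atf4 did, and Gata2+/+ replicate 3 was the highest library by 2.21 times for Atf4 and 2.63 times for Ddit3 over the next. The log2 fold change was -1.20 (SE 0.48; edgeR adjusted p = 0.202; DESeq2 adjusted p = 0.115) for Atf4 and -1.46 (SE 0.48; edgeR adjusted p = 0.156; DESeq2 adjusted p = 0.0513) for Ddit3. Without Gata2+/+ replicate 3 these were -0.46 (unadjusted p = 0.214) and -0.64 (unadjusted p = 0.0692).

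Positions also bear on these genes. Atf4 lies on chromosome 15 with Derl1 and Creld2, and the genes of that chromosome had median deviations of 0.34, -0.13 and 0.36 on the log2 scale in Gata2+/+ replicates 3, 5 and 6, and of -0.023, -0.12 and -0.23 in Gata2+/f replicates 7, 9 and 11. With these medians taken off, the difference in group means of log2(CPM + 0.5) was -0.68 for Atf4, beside -1.0 before, -0.31 for Derl1, beside -0.62, and 0.83 for Creld2, beside 0.52. Ddit3 shares 68 bases of exon with Mars on the opposite strand. Derl2 likewise shares 231 with Mis12, Manf 146 with Dcaf1 and Syvn1 91 with Mrpl49, and since the strand setting of the counting is not given in the sources used here, reads of such partners cannot be told apart.

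ER-associated degradation pulls misfolded proteins back to the cytosol for the proteasome, and its genes were mixed, 5 with a positive and 3 with a negative log2 fold change. Derl3, a derlin of the retrotranslocation channel that is typical of secretory cells, had 1.12, 1.27 and 2.12 CPM in Gata2+/f against 0.260, 0.340 and 0.202 CPM in Gata2+/+. The groups did not overlap, and the log2 fold change of 2.48 (SE 0.53; 95% interval 1.25 to 3.72; edgeR adjusted p = 0.0966; DESeq2 adjusted p = 0.000428) was the largest of the 31. It also had the lowest level per kilobase of the 31, 0.754 CPM per kb in Gata2+/f and 0.134 CPM per kb in Gata2+/+, and as few as 13 counts in a library. Herpud1, a scaffold of the degradation complex, had 72.4, 87.7 and 92.9 CPM in Gata2+/f against 182, 87.8 and 139.6 CPM in Gata2+/+. Its log2 fold change of -0.69 (SE 0.29; unadjusted p = 0.0468, adjusted p = 0.217) was -0.37 without Gata2+/+ replicate 3.

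Derl1, the more abundant derlin, overlapped between groups with 162, 104 and 145 CPM in Gata2+/f against 323, 127 and 221 CPM in Gata2+/+. The ubiquitin ligase Syvn1 (HRD1) was at 43.9 to 54.1 CPM in Gata2+/f and 36.4 to 74.1 CPM in Gata2+/+, and the sign of its log2 fold change of -0.11 changed with scaling. Its partner Sel1l, the mannosidase-like Edem1, Derl2 and the extracting ATPase Vcp had log2 fold changes from 0.14 to 0.48, overlapping groups and unadjusted p of 0.15 or more. Vcp was the most abundant of the 8 per kilobase, at 111 CPM per kb in Gata2+/f and 96.4 CPM per kb in Gata2+/+. The translocon, the channel through which new chains enter the ER, was represented by its pore subunit Sec61a1 and by Sec61b. Sec61a1 overlapped between groups, at 232 to 339.9 CPM in Gata2+/f and 201 to 271 CPM in Gata2+/+. Sec61b parted by a narrow margin, with 89.7 to 132 CPM in Gata2+/f and 78.9 to 89.1 CPM in Gata2+/+; with chromosome medians removed it overlapped, and Vcp no longer did.

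The order of libraries differed within the set. Gata2+/f replicate 9 was the highest library for 12 of the 31 genes (22.4% of all genes), Gata2+/f replicate 11 for 8 (12.7%), Gata2+/f replicate 7 for 3 (20.1%) and Gata2+/+ replicate 3 for 8 (18.6%), while Gata2+/+ replicates 5 and 6 were highest for 0. The lowest library was Gata2+/+ replicate 6 for 15 of the 31, against 14.1% of all genes. The 8 genes that were highest in Gata2+/+ replicate 3 were Hspa5, Dnajb9, Ern1, Atf4, Ddit3, Herpud1, Syvn1 and Derl1. In that library Hspa5, Dnajb9, Ddit3 and Atf4 stood 2.81 to 3.31 times above the mean of the other Gata2+/+ libraries, whereas Sdf2l1, Pdia4 and Pdia6 were 0.557, 0.739 and 0.830 times that mean. Pdia3 and P4hb, at 1.0 and 1.11 times, and Eif2ak3, at 1.08 times, were near it. The cause of the high values of this library was not tested.

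**Figure D3:**
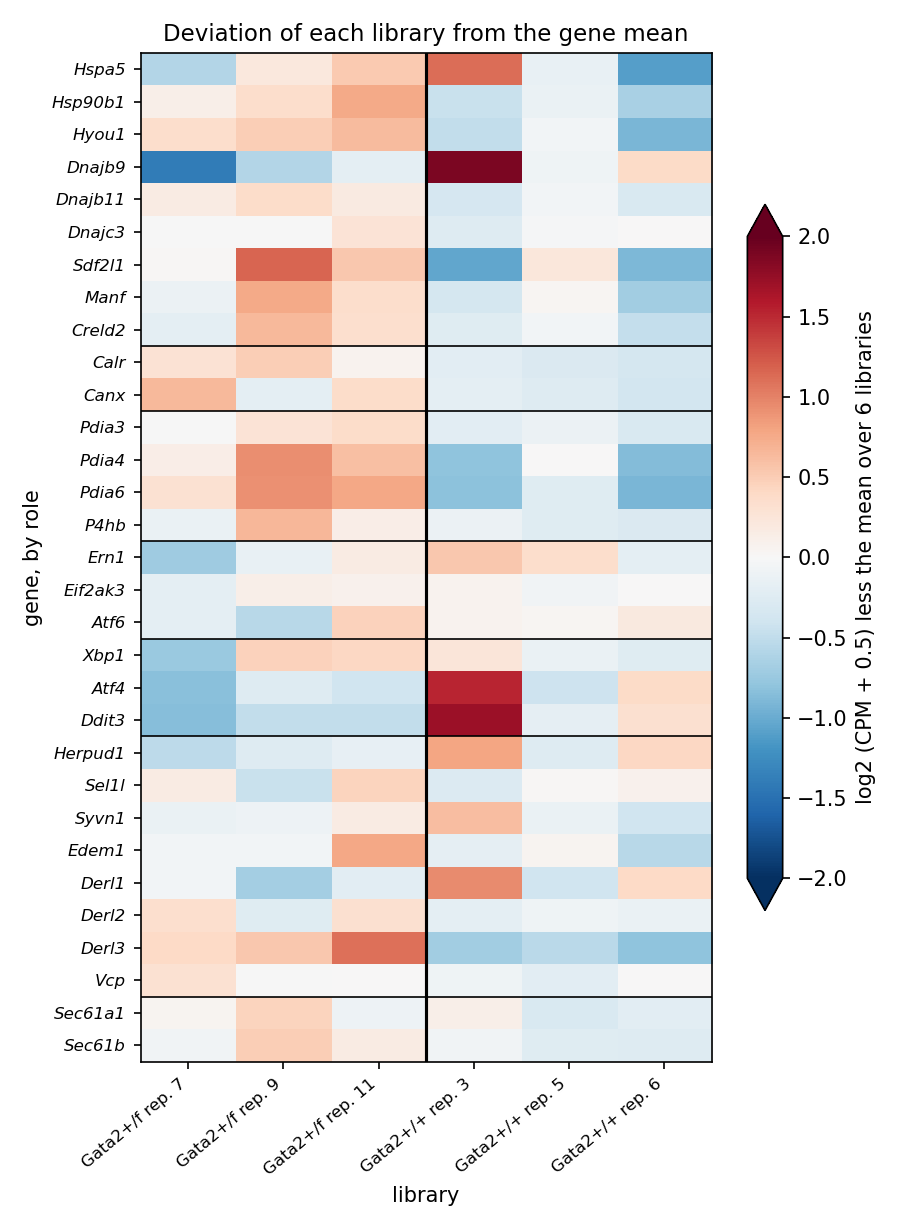
Deviation of log2(CPM + 0.5) from the mean over 6 libraries, for each of the 31 genes (rows, by role) in each library (columns, Gata2+/f left of the line). Red is above and blue below the mean; Gata2+/+ replicate 3 is red for Hspa5, Dnajb9, Atf4 and Ddit3 and blue for Pdia4, Pdia6 and Sdf2l1.

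Other genes of the pathway were counted in 8 lists, whose shares at an unadjusted p under 0.05 stand beside 22.6% of all genes, 11.1% higher and 11.5% lower. Of 20 ATF4 and PERK targets, 8 had a positive log2 fold change, the median was -0.55, and by that threshold 0 were higher and 5 lower (25.0% of the list). Their summed level was 1519, 2025 and 2269 CPM in Gata2+/f against 5433, 2833 and 3066 CPM in Gata2+/+, and 9 of the 20 were highest in Gata2+/+ replicate 3. Ddit4, an inhibitor of the mTORC1 kinase, had 68.4, 53.0 and 129.7 CPM in Gata2+/f against 731, 236 and 482 CPM in Gata2+/+, a log2 fold change of -2.53 (SE 0.51; edgeR adjusted p = 0.0966). Stc2, a secreted glycoprotein, had 0.170, 1.55 and 2.99 CPM in Gata2+/f against 22.8, 5.99 and 61.9 CPM in Gata2+/+. For both, every Gata2+/f library was below every Gata2+/+ library. Of the 9 other eIF2 alpha kinases and subunits of its exchange factor eIF2B, 2 were higher at an unadjusted p under 0.05 (Eif2b3 and Eif2b5, at 0.79 and 0.53) and 0 lower, 22.2% of the list.

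The lists of folding genes had positive medians, but those of the import and thiol genes were no larger than the shift of 0.19 that library totals give to the median of all genes. Of 17 genes of glycosylation and the calnexin cycle, 13 had a positive log2 fold change (median 0.33), 3 were higher with an unadjusted p under 0.05, 0 were lower (17.6% of the list, below the share of all genes), and 8 did not overlap, all of them higher, where 13.1% of all genes were so. Ostc, a subunit of the oligosaccharyltransferase, had 85.7, 94.0 and 68.3 CPM in Gata2+/f against 45.2, 45.8 and 45.1 CPM in Gata2+/+. Mogs, the glucosidase that trims the first glucose, had a log2 fold change of 1.06 (SE 0.24; edgeR adjusted p = 0.0986). Of 19 tested other chaperones and prolyl isomerases (median 0.24), 26.3% passed the unadjusted threshold, near the share of all genes: 4 were higher (among them Fkbp2, a prolyl isomerase, at 0.95, and Ckap4, a protein of ER sheets, at 1.28) and 1 lower (Sdf4, a calcium-binding protein, at -0.55). Of 22 genes of import into the ER (median 0.18), 18.2% passed it, below the share of all genes: 3 were higher, among them Srprb and Srp19 of the signal recognition particle and its receptor (0.68 and 0.71), and 1 lower, the translocation factor Sec62 (-0.61).

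Among 16 other thiol oxidoreductases (median 0.18), 4 were higher and 2 were lower by the same threshold, 37.5% of the list. Prdx4, an ER peroxiredoxin, had 45.7, 47.5 and 32.9 CPM in Gata2+/f against 19.9, 15.6 and 17.9 CPM in Gata2+/+, and Txndc5, an isomerase rich in plasma cells, had 107, 113 and 109 CPM in Gata2+/f against 54.4, 74.9 and 74.9 CPM in Gata2+/+. Ero1l, the oxidase that recharges the isomerases, was lower, with 189, 173 and 275 CPM in Gata2+/f against 551, 294 and 346 CPM in Gata2+/+, and so did Qsox1, another thiol oxidase, at a log2 fold change of -1.19. Prdx4, Txndc5, Ero1l and Qsox1 did not overlap between groups.

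Of 25 tested genes in the wider degradation list, 2 were higher (the ligase Rnf5 at 0.84 and the Vcp inhibitor Svip at 1.25) and 6 lower, 32% of the list. Edem3, a mannosidase that marks glycoproteins for disposal, had 106, 54.2 and 94.5 CPM in Gata2+/f against 303, 193 and 469.7 CPM in Gata2+/+. Herpud2 had 29.5, 28.4 and 30.5 CPM in Gata2+/f against 63.4, 51.0 and 48.4 CPM in Gata2+/+. Both were below Gata2+/+ in every Gata2+/f library. Of 13 tested sensor relatives and modulators, 3 were higher and 1 lower, 30.8% of the list. Atf6b, the sister of Atf6, was higher at 63.0, 76.4 and 67.4 CPM in Gata2+/f against 42.7, 48.8 and 34.5 CPM in Gata2+/+, and so was Creb3l3, though under 1 CPM in every library. Creb3l1, a membrane-bound factor cut like Atf6, had 0.467, 0.936 and 3.57 CPM in Gata2+/f against 40.6, 37.7 and 87.5 CPM in Gata2+/+ (log2 fold change -5.06, SE 0.84; edgeR adjusted p = 0.0955). The medians of the degradation and sensor lists, -0.11 and -0.091, and those of the import and thiol lists, 0.18 each, are smaller in size than the shift of 0.19. None of the genes in the 8 lists passed an adjusted p under 0.05 in edgeR.

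**Figure D4:**
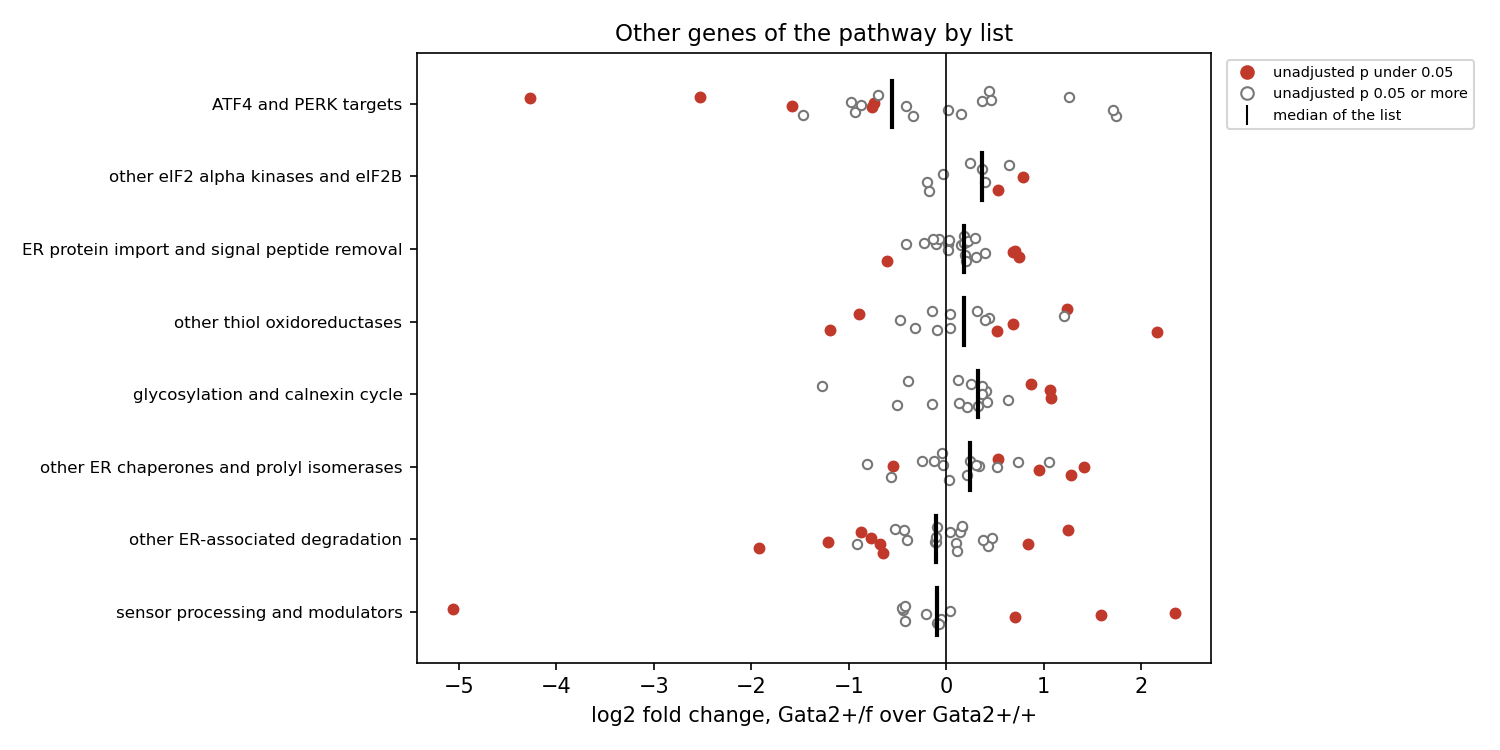
Log2 fold change, Gata2+/f over Gata2+/+, of each tested gene in the 8 other pathway lists (points; filled red where the unadjusted p is under 0.05), with the median of each list as a bar. The ATF4 and PERK targets have 5 filled points, all left of 0, and the glycosylation list has 3, all right of 0.

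Marker genes of plasma cells and of proliferation were also higher in Gata2+/f, and 6 of 7 genes of early granulocytes overlapped between groups. Of all tested genes, 29.7% did not overlap in either direction, and 11.1% were higher at an unadjusted p under 0.05. The 8 plasma cell markers, of which Txndc5 is itself in the thiol list, were all positive (median 1.77), 7 of them with an unadjusted p under 0.05. Their sum was 160.4 to 218 CPM in Gata2+/f and 77.0 to 105 CPM in Gata2+/+. Txndc5 was its largest part in every library, at 107, 113 and 109 CPM in Gata2+/f against 54.4, 74.9 and 74.9 CPM in Gata2+/+. Mzb1 was at 0.452 to 3.99 CPM over all libraries, and Tnfrsf17 at 0.02 to 0.267 CPM, with as few as 1 count. Jchain, which links antibody units, had 39.1, 54.7 and 71.9 CPM in Gata2+/f against 17.2, 22.4 and 16.8 CPM in Gata2+/+, and none of the 8 was at 0 in all libraries. Primary granule genes, which encode proteins that early granulocytes fold in the ER, summed to 2335 to 11839.8 CPM in Gata2+/f and 932 to 3317 CPM in Gata2+/+, with Gata2+/+ replicate 5 above Gata2+/f replicates 7 (2335) and 11 (2771). Of the 7 genes, all were positive, 2 had an unadjusted p under 0.05, and all were highest in Gata2+/f replicate 9, as 12 of the 31 ER genes were. Without that library the log2 fold change of Mpo, the myeloperoxidase of primary granules, was 0.40 (edgeR unadjusted p = 0.497) in place of 1.47. That of the protease gene Prtn3 was 0.71 (unadjusted p = 0.247) in place of 1.84, and Elane, Ctsg, Ms4a3 and Prss57 were at 0.51 to 0.56. Fcnb, which did not overlap between groups, stayed at 3.83 (unadjusted p = 0.0013) in place of 3.98. It had 27.5, 62.6 and 60.1 CPM in Gata2+/f against 1.54, 5.87 and 2.07 CPM in Gata2+/+. All 7 were named after their values had been seen. Proliferation genes were positive in 12 of 12, with sums of 2148 to 3221 CPM in Gata2+/f and 778 to 1642 CPM in Gata2+/+. What part these cells or the cell cycle have in the levels of the ER genes was not tested.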

How the data were processed

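RNA-seq of 6 libraries (3 Gata2+/f, 3 Gata2+/+) was used. The kit selected poly-A RNA and kept the strand, per the labels' protocols. Among the tools, RSEM 1.3.0, STAR 2.5.4a and CASAVA 1.8.2 are listed in the submitters' processing notes, with build GRCm38; the annotation release and the strand setting are not given in the sources used here. The authors deposited RSEM expected counts per Ensembl gene, not normalized. They were rounded, since 11.7% were not whole (tolerance 1e-06). Symbols and coordinates came from GENCODE M21, which held 42548 of 43629 IDs (97.5%). Totals ranged from 53789568 to 67854631, at which 3 counts are 0.0442 to 0.0558 CPM before TMM scaling, and no libraries were duplicates (chi-square per gene 242 or more).

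Genes were kept by filterByExpr (minimum count 10), scaled by TMM and tested with edgeR 4.0.16's quasi-likelihood test (two-sided, in R 4.3.3, without covariates). P-values of the 15432 genes were adjusted by Benjamini-Hochberg, and the threshold was 0.05. The biological coefficient of variation was 0.483. Alternatives were DESeq2 1.42.0, limma 3.58.1 voom, edgeR's newer form, other scalings and filters, and leaving out each library. The fit was tested on simulated data. Removing chromosome medians was added after the data had been seen. CPM per kb divide by the union of annotated exons. Members, lists and the rule for named genes were chosen with earlier results of these data known: all members, and from each other list up to 2 higher and 2 lower genes of smallest p among those with an unadjusted p under 0.05. Promoters are from RefSeq (GRCm38.p6), and no test was run on them. The Hm13 entry of the degradation list matched no ID and is not analysed here. Other marker lists summed as follows. Monocytes and macrophages had 844 to 2048 CPM in Gata2+/f and 245 to 694 CPM in Gata2+/+, dendritic cells 305 to 665 CPM in Gata2+/f and 88.7 to 353 CPM in Gata2+/+, and B cells 15.6 to 24.3 CPM in Gata2+/f and 3.44 to 9.52 CPM in Gata2+/+. T and NK cells had 21.6 to 107 CPM in Gata2+/f and 10.8 to 41.8 CPM in Gata2+/+, erythroid cells 1087 to 2923 CPM in Gata2+/f and 3078 to 3616 CPM in Gata2+/+, and megakaryocytes 22.5 to 125 CPM in Gata2+/f and 497 to 665 CPM in Gata2+/+. Most of the megakaryocyte sum was Itga2b, at 20.4, 97.1 and 106 CPM in Gata2+/f against 647, 625 and 495 CPM in Gata2+/+. The 5 tested megakaryocyte genes were split, 2 with a positive and 3 with a negative log2 fold change (median -0.033). Erythroid genes were split as well, 4 positive and 4 negative (median -0.013).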

Additional observations from a re-analysis of the deposited data

How the results depend on the processing

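No paired analysis was possible because the groups share no replicate numbers. Of the 31 genes, 26 kept the sign of their log2 fold change in 14 of 14 alternatives, and Pdia6, Pdia4, Hyou1 and Derl3 had an unadjusted p under 0.05 in all 14. The exceptions in sign were Hspa5, Eif2ak3, Atf6, Sel1l and Syvn1. The alternatives share libraries, and the share of all genes that did the same was not counted. Whether these counts are high for the 31 genes therefore cannot be judged. Genes called at an adjusted p under 0.05, 0 with edgeR, were 1829 with DESeq2, 32 with edgeR's newer form, 9 with voom, 19 with no filter beyond 1 count and 0 to 66 with a library left out, the 66 without Gata2+/f replicate 11; an adjusted p under 0.1 gave 444. Of the 31 genes, 4 were called higher by DESeq2 and 2 (Pdia6 and Derl3) at an adjusted p under 0.1. Those higher at an unadjusted p under 0.05, 8 in all, were 13 with library totals and 4 to 12 with a library left out (12 without Gata2+/f replicate 7, 5 without Gata2+/+ replicate 3, 4 without Gata2+/+ replicate 6). Of all genes 11.1% were so, 15.9% with library totals, 10.7% without Gata2+/f replicate 7, 6.89% without Gata2+/+ replicate 3 and 7.19% without Gata2+/+ replicate 6. Those lower, 4 in all, were 2 with voom, 2 with upper quartile factors, 2 with library totals and 0 to 5 with a library left out (0 without Gata2+/f replicate 7 and 0 without Gata2+/+ replicate 3). Of all genes 11.5% were lower, 12.7% with voom, 9.48% with upper quartile factors and 7.26% with library totals. With a library left out this share was 6.51% to 11.6% (8.53% without Gata2+/f replicate 7 and 6.51% without Gata2+/+ replicate 3). Non-overlapping genes, 12 in all, were 14 to 19 with a library left out, where fewer libraries must part. The share of all genes, 29.7% with all 6 libraries, was not counted with a library left out, so this rise cannot be judged. The median log2 fold change of the 31 was 0.30 to 0.47 with a library left out. With chromosome medians removed, a different measure, the difference in group means of log2(CPM + 0.5), had a median of 0.31. The cause of the other changes was not tested. The spread between libraries limits single genes: at a log2 fold change of -0.70, Derl1 (SE 0.36) missed an unadjusted p of 0.05, while Dnajb11 (SE 0.20) reached it at 0.47. Derl3 rested on as few as 13 counts in a library.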
